A study of Mus musculus with 6 samples.

Results

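Cells mend DNA double-strand breaks by homologous recombination, interstrand crosslinks through the Fanconi pathway and replication errors through mismatch repair, and checkpoint kinases signal the damage. The 44 genes described here encode general factors of these pathways, taken by name from a given list that leaves out factors made only for meiosis, and all 44 were found among the 54232 genes counted in the study. In homologous recombination, broken ends are resected to single strands, which then search for and invade a matching duplex with the help of BRCA2. Spermatogonia use these factors during DNA replication, and spermatocytes use many of them again on the programmed breaks of meiosis, so a testis with germ cells holds both uses.

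Whole testes were taken at postnatal day 12 (P12) for bulk RNA-seq, an age at which spermatogonia and early spermatocytes lie among Sertoli, Leydig and other somatic cells. There were 3 libraries labelled *Dis3l2* KO and 3 labelled *Dis3l2* WT, all of the B6D2F1 background and the same age. By the study's methods the KO animals are a conditional knockout, in which a floxed *Dis3l2* allele over a deleted one is cut by Cre under the *Stra8* promoter, active in germ cells from spermatogonia on and not in somatic cells, and the controls are littermates. DIS3L2 is a cytoplasmic exoribonuclease. *Dis3l2* itself had 31.6, 25.4 and 27.5 CPM (counts relative to library size) in KO-labelled libraries and 25.8, 23.5 and 23.0 CPM in WT-labelled libraries. Its homolog *Dis3*, of the RNA exosome, had 59.1, 64.3 and 68.1 CPM in KO-labelled libraries and 133, 148 and 137 CPM in WT-labelled libraries. The gene that carries the label was thus not called lower with TMM scaling (log2 fold change 0.22, adjusted p = 0.136 from edgeR), and stood at -0.20 with scaling to somatic markers. *Dis3*, which the deposited sentence on the design names, was lower with TMM scaling (log2 fold change -1.13, adjusted p = 2.7e-07 from edgeR). General germ cell markers had a median log2 fold change of -1.07 in the same libraries, and the part of that shift in the *Dis3* value was not tested. A count over all exons of *Dis3l2* includes exons outside the deleted part and RNA of cells without Cre, and the study's other assays of *Dis3l2* were not analysed here, so the groups are called by their labels, and every direction given is that of the KO-labelled against the WT-labelled libraries.

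Total counts ran from 37533318 to 44956193 per KO-labelled library and from 33325483 to 41945867 per WT-labelled library. CPM are scaled by TMM, and a gene is called higher or lower at a Benjamini-Hochberg adjusted p under 0.05 over all 20327 genes tested with edgeR's quasi-likelihood test. All 44 repair genes had enough counts to be tested, the fewest being 64 counts in a library, for *Rad51b*.

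With TMM scaling, repair genes were lower in the KO-labelled testes (31 of the 44 changed sign when libraries were scaled to germ cell markers), with *Atr*, *Fancd2* and *Brca2* at the smallest adjusted p. Of the 44 genes, 30 were lower (68.2%), 0 were higher and 14 did not pass edgeR's test, where 16.5% of all genes tested were lower and 16.2% higher. At an unadjusted p under 0.05 also 0 members were higher, beside 21% of all genes tested, and DESeq2 called 29 lower and 0 higher. The median log2 fold change of the 44 genes was -0.56, against -0.02 over all genes tested, and single genes ran from -1.39 (*Fanci*) to 0.09 (*Msh3*). Called lower with an estimated fall of more than 2-fold were 13 members (29.5%), beside 6.05% of all genes tested, and no test was made against 2-fold. In 33 members (75%) all KO-labelled libraries lay below all WT-labelled libraries, beside 23.8% of all genes tested, and in 0 members did they all lie above, beside 21.7%.

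The libraries of a group kept an order across many members. Replicate 3 was the highest of the KO-labelled libraries for 27 members and replicate 1 the lowest for 25, and of the WT-labelled libraries replicate 2 was the highest for 26 and replicate 3 the lowest for 27. These orders were not counted over all genes tested, and the members are not independent of each other. Summed germ cell markers also rose from KO-labelled replicate 1 to 3 (833, 977 and 1086 CPM), and summed Sertoli cell markers did not (10282, 10760 and 9898 CPM). Summed over the 44 genes, the KO-labelled libraries held 1478, 1574 and 1669 CPM and the WT-labelled libraries 2445, 2637 and 2387 CPM. The spread of this sum within a group was small beside the gap between the groups. No KO-labelled library reached the WT-labelled range of the sum, in which the highest genes weigh most.

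**Figure D1:**
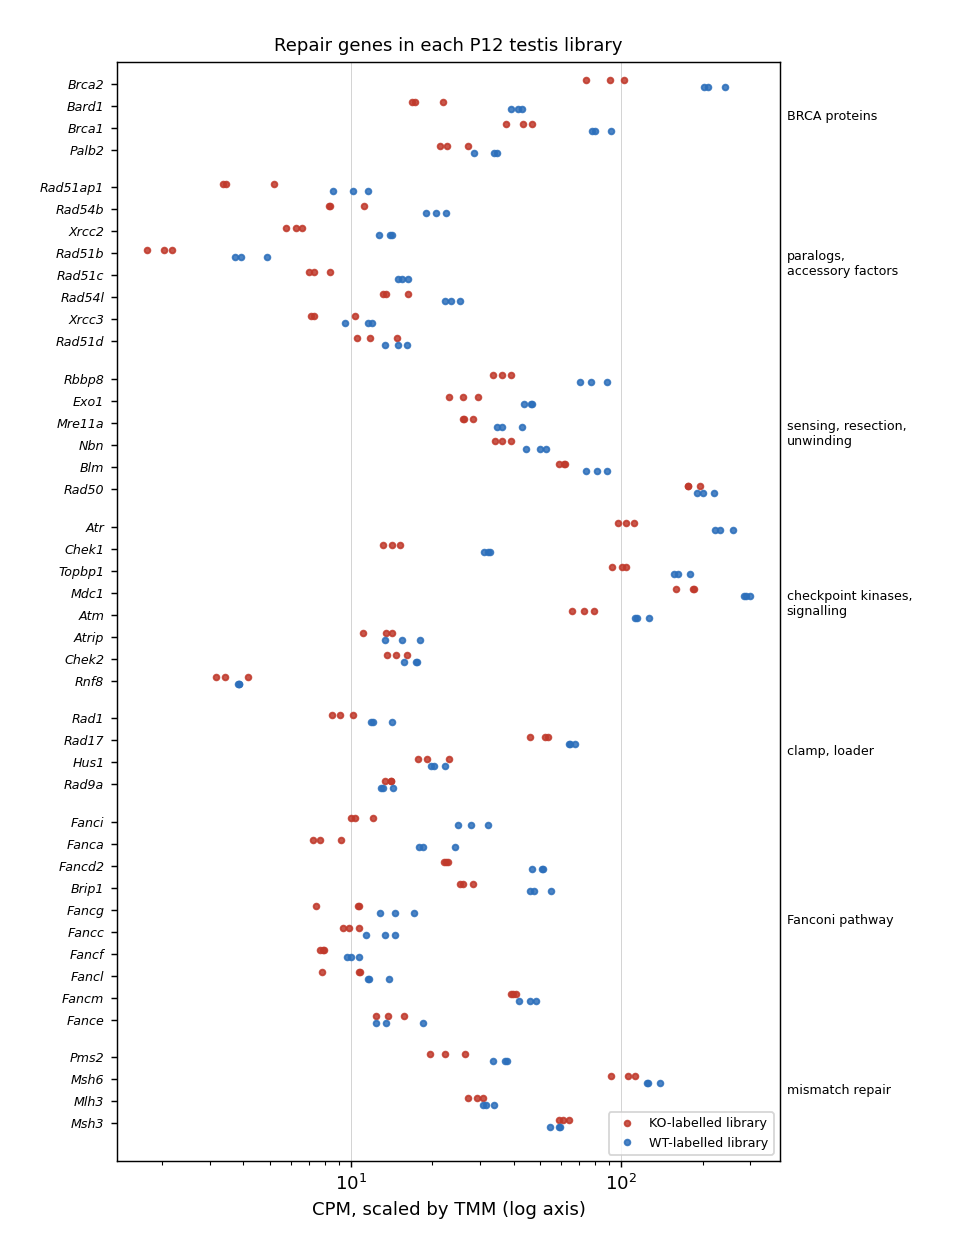
CPM scaled by TMM (log axis) of the 44 repair genes in each library, KO-labelled points above WT-labelled points in a row, with genes grouped by role and ordered by fold change within a group. In 33 rows the 3 KO-labelled points lie left of all 3 WT-labelled points, from *Rad51b* near 2 CPM to *Mdc1* at 160 to 299 CPM.

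Markers of cell types moved in the same libraries, and in RNA of a whole testis fewer cells of a type and less RNA per cell cannot be told apart. Of 12 general germ cell markers, 10 were lower (median log2 fold change -1.07), with a summed level of 833 to 1086 CPM in the KO-labelled and 2369 to 2770 CPM in WT-labelled libraries. All 14 markers of meiotic prophase were lower (median -1.89, 413 to 539 CPM against 1438 to 1778 CPM), as were 4 of 6 of differentiating spermatogonia (median -1.40, 188 to 231 CPM against 468 to 504 CPM) and 11 of 12 proliferation genes (median -0.76, 1083 to 1276 CPM against 1951 to 2108 CPM). Of 10 markers of undifferentiated spermatogonia, 6 were higher (median 0.52, 264 to 318 CPM against 219 to 225 CPM). All 12 Sertoli cell markers were higher (median 0.74, 9898 to 10760 CPM against 6106 to 6460 CPM). Of the other somatic lists, 5 of 7 Leydig, 3 of 6 stromal, 2 of 6 endothelial and 5 of 6 macrophage markers were higher, and 3 of 6 peritubular myoid markers were lower. Leaving out single libraries took these counts to as few as 3 for Leydig cells (without WT-labelled replicate 2), 2 for macrophages (without KO-labelled replicate 1 or WT-labelled replicate 2) and 1 for endothelial cells (without KO-labelled replicate 1 or WT-labelled replicate 1 or 3) and myoid cells (without KO-labelled replicate 2). None of the markers on the germ and Sertoli cell lists was at 0 in a library. The part of these shifts in the values of the repair genes was not tested.

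Among the BRCA proteins all 4 genes were lower, with a median log2 fold change of -1.05. BRCA1 and its partner BARD1 form a ubiquitin ligase that acts from end resection on, and PALB2 joins BRCA1 to BRCA2. *Brca2*, on the plus strand of chromosome 5 (150522630 to 150570329, GRCm38), had 74.1, 91.0 and 102 CPM in KO-labelled libraries and 210, 241 and 203 CPM in WT-labelled libraries. The highest KO-labelled library thus stood far below the lowest WT-labelled one, and *Brca2* fell by 1.29 on the log2 scale (SE 0.11, adjusted p = 1.0e-06 from edgeR). *Bard1* had 16.8, 17.2 and 21.8 CPM in KO-labelled libraries, against 42.8, 41.5 and 39.0 CPM in WT-labelled libraries (log2 fold change -1.14, SE 0.11, adjusted p = 5.2e-06 from edgeR). *Brca1* had 37.3, 43.4 and 46.9 CPM in KO-labelled libraries, against 79.9, 91.8 and 77.6 CPM in WT-labelled libraries (log2 fold change -0.97, SE 0.10, adjusted p = 7.9e-06 from edgeR). In both genes the groups were well apart. *Palb2* was lower by less, at 23.7 ± 2.97 CPM in the KO-labelled and 32.3 ± 3.38 CPM in WT-labelled libraries (SD, n = 3 each, log2 fold change -0.45, adjusted p = 0.00879 from edgeR). Without WT-labelled replicate 1 or 2 *Palb2* did not pass (adjusted p = 0.0523 and 0.0559 from edgeR).

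RAD51B, RAD51C, RAD51D, XRCC2 and XRCC3 are paralogs that aid strand invasion, in complexes that join RAD51B, RAD51C and RAD51D with XRCC2 and that pair RAD51C with XRCC3. Of the 8 genes for paralogs and accessory factors 6 were lower, again with a median of -1.05, and their levels were low, at 1.99 to 14.3 CPM on average in the KO-labelled and 4.17 to 23.7 CPM in WT-labelled libraries. *Xrcc2* had 5.75, 6.58 and 6.23 CPM in KO-labelled libraries and 13.9, 14.2 and 12.7 CPM in WT-labelled libraries. *Rad51c* had 6.99, 7.28 and 8.33 CPM in KO-labelled libraries and 14.9, 15.5 and 16.3 CPM in WT-labelled libraries. Both paralogs stood at under 0.5 of their WT-labelled level, with log2 fold changes of -1.13 (SE 0.14, adjusted p = 3.2e-05 from edgeR) for *Xrcc2* and -1.05 (SE 0.14, adjusted p = 4.4e-05 from edgeR) for *Rad51c*. *Rad51b* was lower by as much with wider error, at 1.99 ± 0.21 CPM in the KO-labelled and 4.17 ± 0.609 CPM in WT-labelled libraries (SD, n = 3 each, log2 fold change -1.06, 95% interval -1.54 to -0.59). The remaining paralogs did not pass the test: the log2 fold change was -0.26 for *Rad51d* (adjusted p = 0.196 from edgeR) and -0.42 for *Xrcc3* (adjusted p = 0.074 from edgeR), and the libraries of the groups overlapped in both. *Xrcc3* passed without KO-labelled replicate 3 (adjusted p = 0.0113 from edgeR), its highest KO-labelled library at 10.3 CPM.

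RAD51AP1 aids strand invasion as well, and RAD54L and RAD54B are motor proteins that help the invading strand find the matching duplex. *Rad51ap1* had 3.44, 3.36 and 5.19 CPM in KO-labelled libraries, against 10.2, 11.6 and 8.61 CPM in WT-labelled libraries (log2 fold change -1.34, SE 0.20, adjusted p = 1.3e-04 from edgeR). *Rad54b* had 8.36, 8.29 and 11.2 CPM in KO-labelled libraries, against 20.6, 22.4 and 18.9 CPM in WT-labelled libraries (log2 fold change -1.15, SE 0.14, adjusted p = 3.4e-05 from edgeR). *Rad54l* had 13.5, 13.1 and 16.3 CPM in KO-labelled libraries, against 25.3, 22.3 and 23.5 CPM in WT-labelled libraries (log2 fold change -0.73, SE 0.12, adjusted p = 3.5e-04 from edgeR). In each of these genes KO-labelled replicate 3 was the highest of its group and still lay below every WT-labelled library. Exons of *Fsbp* on the same strand cover 35.8% of the exon bases of *Rad54b*, and reads on shared bases were not counted, so the *Rad54b* values are those of the remaining exons.

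Of the 6 genes for break sensing, end resection and unwinding, 5 were lower, with a median of -0.46. CtIP, the product of *Rbbp8*, starts resection together with the MRE11, RAD50 and NBN complex, and the nuclease EXO1 and the helicase BLM carry it on. *Rbbp8* had 36.1, 33.4 and 39.1 CPM in KO-labelled libraries, against 77.2, 88.7 and 70.6 CPM in WT-labelled libraries (log2 fold change -1.12, SE 0.10, adjusted p = 1.9e-06 from edgeR). *Exo1*, which also cuts back mismatched strands, had 23.0, 26.0 and 29.4 CPM in KO-labelled libraries, against 43.5, 46.6 and 46.3 CPM in WT-labelled libraries (log2 fold change -0.80, SE 0.10, adjusted p = 4.6e-05 from edgeR). The values of the sensing complex and of *Blm* lay nearer to 0. *Mre11a* (log2 fold change -0.50), *Nbn* (-0.43) and *Blm* (-0.42) were lower with adjusted p between 0.00163 and 0.00364 from edgeR. *Rad50* had 176, 177 and 196 CPM in KO-labelled libraries and 201, 220 and 190 CPM in WT-labelled libraries, which overlap, and its log2 fold change of -0.15 had a 95% interval of -0.33 to 0.02 (adjusted p = 0.171 from edgeR).

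ATR, the kinase that answers to single-stranded DNA at stalled forks and unpaired meiotic chromosomes, and ATM, the kinase that answers to double-strand breaks, lead the checkpoint group, in which 5 of 8 genes were lower (median -0.71). *Atr*, on the plus strand of chromosome 9 (95857597 to 95951781, GRCm38), had the smallest adjusted p of the 44 genes. It had 96.9, 104 and 111 CPM in KO-labelled libraries and 231, 258 and 223 CPM in WT-labelled libraries. The groups were far apart beside the spread of either, and *Atr* fell by 1.19 on the log2 scale (SE 0.08, adjusted p = 1.9e-07 from edgeR). *Chek1*, which encodes the kinase that ATR activates, had 13.1, 14.2 and 15.2 CPM in KO-labelled libraries, against 32.7, 31.0 and 32.1 CPM in WT-labelled libraries (log2 fold change -1.17, SE 0.11, adjusted p = 1.9e-06 from edgeR). *Topbp1*, whose product activates ATR, had 92.3, 101 and 104 CPM in KO-labelled libraries, against 156, 179 and 162 CPM in WT-labelled libraries (log2 fold change -0.74, SE 0.08, adjusted p = 1.3e-05 from edgeR). The genes of this kinase, activator and target were thus lower with no overlap between the groups, beside 23.8% of all genes tested without overlap in that direction. Other genes of the ATR branch did not pass, among them *Hus1* (log2 fold change -0.05) and *Rad9a* (0.04), whose products help to bring TOPBP1 to ATR. *Atrip*, the obligate partner of ATR, had 11.1, 14.2 and 13.5 CPM in KO-labelled libraries and 13.4, 18 and 15.5 CPM in WT-labelled libraries, which overlap (log2 fold change -0.27, 95% interval -0.58 to 0.04, adjusted p = 0.173 from edgeR). Exons of *Trex1* on the same strand share 16% of its exon bases, whose reads were not counted.

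In the ATM branch, *Atm* had 65.9, 72.7 and 79.1 CPM in KO-labelled libraries, against 114, 127 and 112 CPM in WT-labelled libraries (log2 fold change -0.70, SE 0.09, adjusted p = 3.9e-05 from edgeR). *Mdc1*, whose product binds phosphorylated H2AX and spreads the signal along chromatin, had 160, 185 and 184 CPM in KO-labelled libraries, against 284, 299 and 290 CPM in WT-labelled libraries (log2 fold change -0.72, SE 0.08, adjusted p = 1.2e-05 from edgeR). Per kilobase of exon, *Mdc1* was the highest of the 44 genes in WT-labelled libraries (39.2 CPM per kb, against 23.8 in KO-labelled libraries) and *Rad50* the highest in KO-labelled libraries (34.1 CPM per kb, against 37.9 in WT-labelled libraries). *Chek2*, which encodes the kinase downstream of ATM, did not pass (log2 fold change -0.19, 95% interval -0.45 to 0.07, adjusted p = 0.253 from edgeR), nor did *Rnf8*, the ubiquitin ligase gene that acts after MDC1 (-0.10, 95% interval -0.53 to 0.32, adjusted p = 0.738 from edgeR). Exons of *Gm28043* on the same strand cover 48.5% of the exon bases of *Rnf8*, which was also among the lowest members, at 3.58 CPM on average in the KO-labelled and 3.83 CPM in WT-labelled libraries.

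The RAD9A, RAD1 and HUS1 proteins form a ring-shaped clamp that RAD17 loads at damaged DNA, where it brings TOPBP1 to ATR. Of these 4 genes 2 were lower, and the median was -0.21. *Rad17* had 50.5 ± 3.94 CPM in the KO-labelled and 65.2 ± 1.83 CPM in WT-labelled libraries (SD, n = 3 each, log2 fold change -0.37, adjusted p = 0.00455 from edgeR). *Rad1* was lower as well (-0.46, adjusted p = 0.0223 from edgeR), but did not pass without KO-labelled replicate 2 or 3 or WT-labelled replicate 1 or 2 (adjusted p from 0.0576 to 0.125 from edgeR). *Hus1* (-0.05, 95% interval -0.31 to 0.21) and *Rad9a* (0.04, 95% interval -0.22 to 0.30) lay near 0, and their libraries overlapped.

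In the Fanconi pathway a core complex, anchored to DNA by FANCM and holding the ubiquitin ligase FANCL, monoubiquitinates FANCD2 and FANCI. Of 10 genes 6 were lower (median -0.51), with the genes of both targets below -1.1 on the log2 scale. *Fancd2* had 22.9, 22.1 and 22.4 CPM in KO-labelled libraries, against 46.6, 51.3 and 50.7 CPM in WT-labelled libraries (log2 fold change -1.14, SE 0.09, adjusted p = 5.9e-07 from edgeR). *Fanci* had 10, 10.3 and 12.1 CPM in KO-labelled libraries, against 27.7, 32.0 and 24.9 CPM in WT-labelled libraries (log2 fold change -1.39, SE 0.13, adjusted p = 2.6e-06 from edgeR). *Brip1*, the gene of a helicase that binds BRCA1, had 25.9, 25.4 and 28.3 CPM in KO-labelled libraries, against 47.4, 55.0 and 45.8 CPM in WT-labelled libraries (log2 fold change -0.90, SE 0.10, adjusted p = 1.3e-05 from edgeR). In these genes the replicates of the KO-labelled group lay close together and far below the WT-labelled group. Of the core complex, *Fanca* had 7.21, 7.70 and 9.17 CPM in KO-labelled libraries, against 17.8, 18.4 and 24.2 CPM in WT-labelled libraries (log2 fold change -1.33, SE 0.15, adjusted p = 1.6e-05 from edgeR). *Fancg*, whose product binds FANCA, was lower by 0.63 (adjusted p = 0.00949 from edgeR) and *Fancc* by 0.40 (adjusted p = 0.0432 from edgeR), and each lost its call without a library, *Fancg* at the threshold without WT-labelled replicate 3 and *Fancc* in 4 of 6 such fits (adjusted p from 0.0976 to 0.194). *Fancf* (-0.37), *Fancl* (-0.34), *Fancm* (-0.19) and *Fance* (-0.08) did not pass, with adjusted p from 0.0571 to 0.726 from edgeR. In *Fancf*, *Fancl* and *Fancm* all KO-labelled libraries lay below all WT-labelled libraries, which also held for 23.8% of all genes tested.

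In mismatch repair MSH6 takes part in binding base mismatches and small loops and MSH3 in binding larger loops, and PMS2 and MLH3 act after them. Of these 4 genes 2 were lower, with a median of -0.24. *Pms2* had 19.6, 22.2 and 26.3 CPM in KO-labelled libraries, against 37.1, 37.7 and 33.4 CPM in WT-labelled libraries (log2 fold change -0.67, SE 0.12, adjusted p = 4.9e-04 from edgeR). *Msh6* was at 103 ± 10.5 CPM in the KO-labelled and 130 ± 8.41 CPM in WT-labelled libraries (SD, n = 3 each, log2 fold change -0.33, adjusted p = 0.0103 from edgeR), and did not pass without WT-labelled replicate 2 (adjusted p = 0.0777). *Msh3* had the highest fold change of the 44 genes, 0.09 (95% interval -0.09 to 0.27, adjusted p = 0.448 from edgeR). *Mlh3*, whose product also resolves meiotic crossovers, had a log2 fold change of -0.14 (95% interval -0.35 to 0.07, adjusted p = 0.300 from edgeR), and the libraries overlapped in both.

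**Figure D2:**
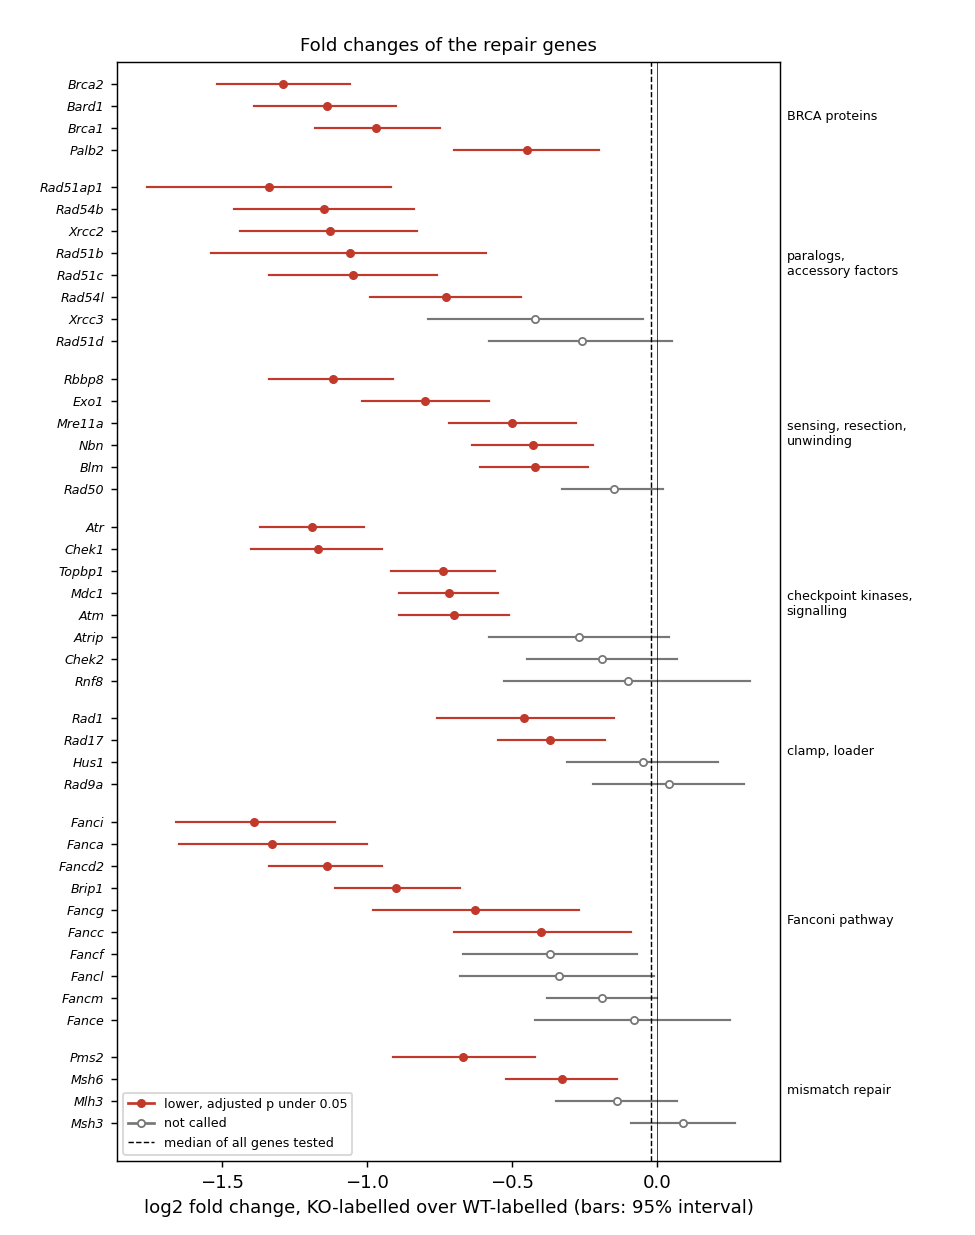
Log2 fold change of the 44 repair genes, KO-labelled over WT-labelled with TMM scaling, and 95% intervals from edgeR's quasi-likelihood fit; filled red points are lower at an adjusted p under 0.05, open grey points did not pass, and the dashed line is the median of all genes tested. The 30 filled points lie between -1.39 and -0.33 and the 14 open points between -0.42 and 0.09.

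The 14 genes that did not pass overlapped the 30 lower genes in level but had a lower median. They averaged 3.58 to 183 CPM in KO-labelled libraries (median 13.9) and 3.83 to 204 CPM in WT-labelled libraries (median 15.2). The 30 lower genes averaged 1.99 to 177 CPM in KO-labelled libraries (median 23.2) and 4.17 to 291 CPM in WT-labelled libraries (median 39.5). The part of the level in the calls was not tested. With TMM scaling the lowest bound of the 95% intervals of the 14 genes was -0.79 (*Xrcc3*), so none reached a fall beyond 0.79 on the log2 scale. This bound depends on the scaling, and scaling to somatic markers moved the median of all genes by -0.42.

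Several genes that did not pass encode partners of genes that fell, and their ratio within a library does not depend on how libraries are scaled. It restates the fold changes of both genes library by library, and pairs with 1 partner lower tend to differ by that choice, so the ratios are a description and were not set against other gene pairs. In 12 pairs, ratios of CPM per kilobase of exon were compared by a two-sided exact permutation test, whose smallest p with 3 libraries against 3 is 0.1 over 20 arrangements, so no pair could pass 0.05. In 8 pairs the groups did not overlap (exact permutation p = 0.1, adjusted over the 12 pairs 0.15). The *Chek2* to *Chek1* ratio was 1.89, 1.48 and 1.5 in KO-labelled libraries, against 0.822, 0.876 and 0.754 in WT-labelled libraries, so *Chek2* stood above *Chek1* in every KO-labelled library and below it in every WT-labelled one (log2 difference 0.98, SE 0.13). The *Atrip* to *Atr* ratio was 0.378, 0.450 and 0.402 in KO-labelled libraries, against 0.191, 0.231 and 0.229 in WT-labelled libraries (log2 difference 0.92, SE 0.12). The *Palb2* to *Brca2* ratio was 0.534, 0.463 and 0.493 in KO-labelled libraries, against 0.307, 0.261 and 0.261 in WT-labelled libraries (log2 difference 0.85, SE 0.10). In each of these pairs the partner named first was closer to the second in KO-labelled libraries or above it.

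The *Xrcc2* to *Rad51d* ratio was 0.277, 0.398 and 0.424 in KO-labelled libraries, against 0.661, 0.760 and 0.561 in WT-labelled libraries (log2 difference -0.86, SE 0.23). The log2 differences of the other pairs without overlap were -0.61 (SE 0.15) for *Rad51c* to *Xrcc3*, -0.53 (SE 0.19) for *Pms2* to *Mlh3*, -0.42 (SE 0.09) for *Msh6* to *Msh3* and 0.34 (SE 0.04) for *Rad50* to *Mre11a*. The ratios overlapped between the groups in other pairs: *Bard1* to *Brca1* (log2 difference -0.19, SE 0.10, exact permutation p = 0.2), *Fanci* to *Fancd2* (-0.24, SE 0.14, exact permutation p = 0.2) and *Nbn* to *Mre11a* (0.07, SE 0.10, exact permutation p = 0.6). *Rad1* to *Hus1* overlapped as well (-0.40, SE 0.19, exact permutation p = 0.2). Lengths are those of all annotated exons, so a ratio compares libraries more safely than it compares levels of different genes.

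**Figure D3:**
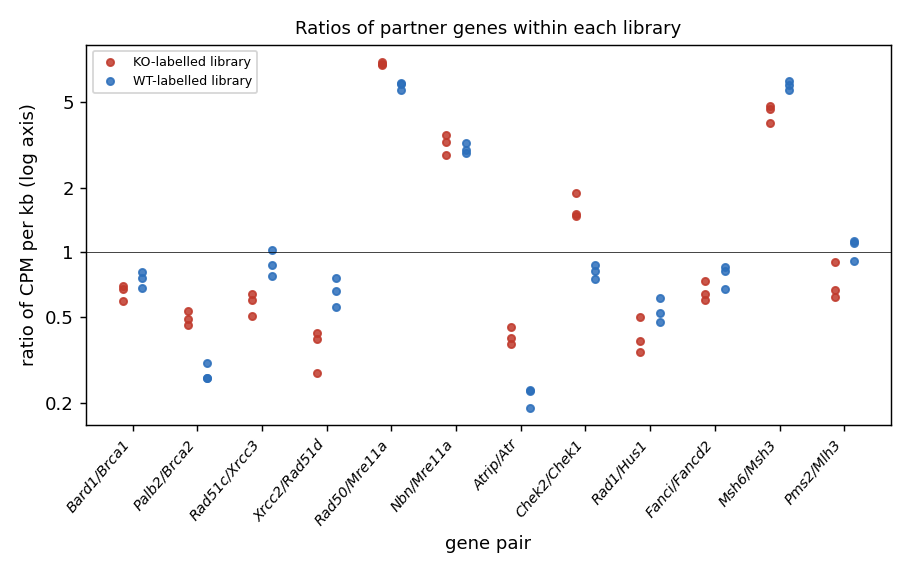
Ratio of CPM per kilobase of exon (log axis) for 12 pairs of partner genes, KO-labelled libraries left of WT-labelled libraries in each pair, 1 point per library. The *Chek2* to *Chek1* ratio lies at 1.48 to 1.89 in the KO-labelled and at 0.754 to 0.876 in WT-labelled libraries, and the groups are apart in 8 of the 12 pairs.

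Genes of other repair pathways were described from lists beside these 44. Of 29 other genes of homologous recombination and the Fanconi pathway, 16 were lower and 1 higher (median -0.32). *Ube2t*, the conjugating enzyme gene that serves FANCL, fell to 7.62, 6.14 and 8.43 CPM in KO-labelled libraries, against 27.2, 27.3 and 30.5 CPM in WT-labelled libraries (log2 fold change -1.94, SE 0.14, adjusted p = 1.7e-07 from edgeR). This value lay beyond the lowest of the 44 genes. The higher one was *Sfr1*, a gene of homologous recombination (log2 fold change 0.38, adjusted p = 0.00632 from edgeR), which turned to -0.05 when libraries were scaled to somatic markers. Of 14 end-joining genes 5 were lower and 0 higher (median -0.01), with *Polq*, the polymerase gene of the microhomology route, at -1.49 and *Xrcc6*, a Ku subunit gene, at -0.39, and 3 were lower without KO-labelled replicate 1, WT-labelled replicate 1 or WT-labelled replicate 2. Of 17 genes of base excision repair 4 were lower and 0 higher (median -0.20), led by the glycosylase genes *Ogg1* (-0.91) and *Mbd4* (-0.79), and 7 were lower in a fit of protein-coding genes only. Of 17 genes of nucleotide excision repair 5 were lower and 2 higher (median -0.01), with *Ddb2*, a damage sensor gene, at -1.61, *Gtf2h2*, a TFIIH subunit gene, at -0.81, *Xpa* at 0.46 and *Ercc6* at 0.31; 0 were higher without KO-labelled replicate 2 or with scaling to somatic markers, and 1 without WT-labelled replicate 1 or 3. Over the 77 genes of these lists 39% were lower, beside 68.2% of the 44 genes and 16.5% of all genes tested, and the lists were not tested against each other.

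What the libraries are scaled to sets the direction. With scaling to 43 markers of somatic cells, 43 of the 44 genes were lower and 0 higher (median -0.97), where 42.8% of all genes tested were lower, 2.2% were higher and the median of all genes was -0.44. With scaling to the 12 general germ cell markers, 27 of the 44 genes were higher (61.4%) and 0 lower (median 0.54), where 72.7% of all genes tested were higher, 1.59% were lower and the median of all genes was 1.09. Of the 30 lower genes, 13 were higher under that scaling. The 12 markers did not move alike: with TMM scaling their log2 fold changes ran from -2.39 to -0.06. Scaled to their own set, 4 of them were still called higher and 3 lower. A rescaling moves the fold changes of all genes alike.

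**Figure D4:**
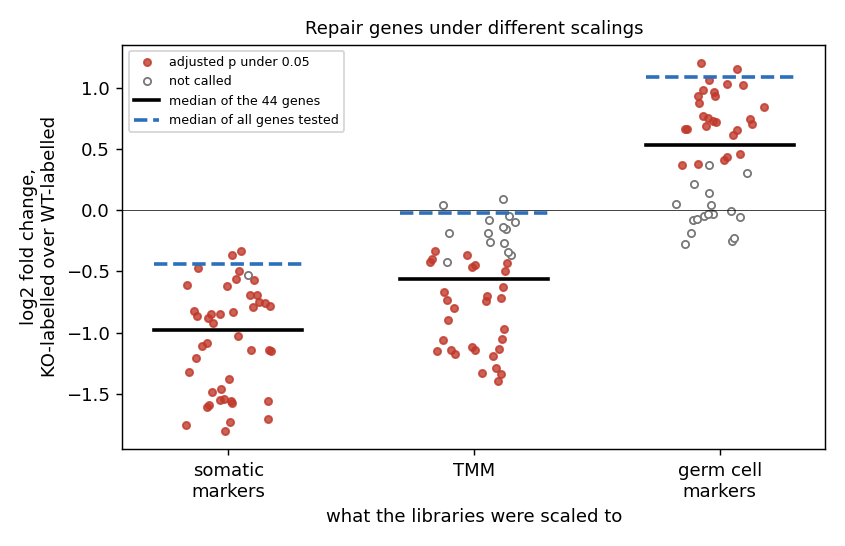
Log2 fold change of the 44 repair genes, KO-labelled over WT-labelled, with the libraries scaled to somatic markers, by TMM and to germ cell markers (1 point per gene, spread sideways for visibility); solid lines are the median of the 44 genes, dashed lines that of all genes tested. The solid line lies at -0.97, -0.56 and 0.54 and the dashed line at -0.44, -0.02 and 1.09.

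Promoter sequence is a feature that the choice of the genes did not use. RefSeq (GRCm38.p6) gave 40 windows, from 250 bases before to 50 after a start, for 35 of the 44 genes, and each was searched on both strands for 4 motifs. E2F factors drive many genes of DNA replication in S phase, and their site was written as TTTCCCGC, TTTCGCGC, TTTGCCGC or TTTGGCGC. It was in 10 of the 40 windows (25%), of 9 genes, beside 2.26% of all 32851 promoter windows, 2.85% of those of protein-coding genes and 4.41% of those of the other repair lists. Of the 24 lower genes with a window 7 had a match, and of the 11 that did not pass 2 had one, so the motif was present on both sides. CCAAT, the box of NF-Y, was in 62.5% of the member windows, 54.4% of those of the other repair lists and 37.4% of all windows. The CHR element of cell-cycle genes (TTTGAA or TTCGAA) was in 12.5% and 19.2%, and the palindromic NRF1 site in 0 of 40 member windows and 0.971% of all windows. Stretches before a RefSeq start with an E2F match are given for 5 lower genes and for *Chek2* and *Msh3*, which did not pass. Their matches are alike because the search fixed the letters. Measured from the counted gene, the *Fancg* stretch lies inside it and the *Topbp1* stretch crosses its start. All stretches have the match in capitals and read 5′ to 3′ on the gene's strand, with 30 bases where an annotated exon overlaps or adjoins. They lie at chr5:150522407-150522506 (plus strand) for *Brca2*, chr1:71103163-71103192 (minus) for *Bard1*, chr17:35841398-35841497 (plus) for *Mdc1*, chr9:103305187-103305216 (plus) for *Topbp1*, chr4:43010335-43010364 (minus) for *Fancg*, chr5:110839785-110839884 (plus) for *Chek2* and chr13:92355185-92355214 (minus) for *Msh3*. In *Msh3* matches on both strands overlap. A match is a run of letters, and binding was not measured.
Brca2: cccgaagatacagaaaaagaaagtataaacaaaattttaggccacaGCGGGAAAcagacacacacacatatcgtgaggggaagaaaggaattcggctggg
Bard1: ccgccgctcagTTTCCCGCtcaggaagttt
Mdc1: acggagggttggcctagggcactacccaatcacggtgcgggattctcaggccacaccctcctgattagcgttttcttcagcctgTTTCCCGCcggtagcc
Topbp1: ccgctcggttgGCGCGAAAgtcggttcccg
Fancg: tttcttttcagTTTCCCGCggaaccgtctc
Chek2: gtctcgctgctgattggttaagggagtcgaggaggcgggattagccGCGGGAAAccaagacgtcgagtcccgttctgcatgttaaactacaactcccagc
Msh3: gccgtcaagTTTGGCGCGAAAtcgcagccc

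Neighbours that start within 1000 bases of a member on the other strand and point away from it share its upstream region. Such a neighbour was found and tested for 15 members, and of the 15 neighbours 4 were lower, 1 was higher and 10 did not pass edgeR's test (median -0.22). Of all genes tested 16.5% were lower and 16.2% higher, and the neighbours are too few to set against these shares. Beside the 13 lower members among these, 3 neighbours were lower and 1 higher. *Tex14*, a gene of the bridges between germ cells that starts 111 bases from *Rad51c*, had 66.1, 70.3 and 80.9 CPM in KO-labelled libraries, against 121, 130 and 116 CPM in WT-labelled libraries (log2 fold change -0.76, SE 0.09, adjusted p = 2.2e-05 from edgeR). *Npat*, a regulator gene of histone transcription that starts 307 bases from *Atm*, had a log2 fold change of -0.46 (SE 0.09, adjusted p = 8.4e-04 from edgeR). Both were picked as the lower neighbours with the smallest adjusted p, so their direction was set by that choice. *Brip1os*, an antisense RNA gene 177 bases from *Brip1*, had 64.1, 55.7 and 49.1 CPM in KO-labelled libraries, against 42.7, 47.9 and 47.7 CPM in WT-labelled libraries (log2 fold change 0.29, SE 0.10, adjusted p = 0.0462 from edgeR), but was at -0.14 with scaling to somatic markers. The genes beside *Brca1* and *Fancd2*, chosen after their values were seen, did not pass: *Nbr1*, an autophagy receptor gene 194 bases from *Brca1*, stood at 0.08 on the log2 scale (adjusted p = 0.499 from edgeR), and *Emc3*, a gene of a membrane protein complex 30 bases from *Fancd2*, at 0.15 (adjusted p = 0.184 from edgeR).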

How the data were processed

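Total RNA of P12 testes was primed with random and poly(T) primers, strand-selected, depleted of abundant transcripts with AnyDeplete and sequenced single-end. The authors trimmed reads with cutadapt, aligned them with HISAT2 (GRCm38.p5 in the submitters' notes) and counted them with featureCounts 1.6.4 (strand setting 1, GENCODE M18), which by default drops multi-mapping reads and those shared by several genes. The deposited values are these raw counts per gene for 6 libraries. Names came from GENCODE M21 (54165 of 54232 identifiers).

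Counts were scaled by TMM, filtered by filterByExpr and tested with edgeR 4.0.16 under R 4.3.3, with no covariate. The SE was taken as |log2 fold change| over the root of the F statistic, and 95% intervals use the t distribution with the fit's degrees of freedom. Tables and plots were made with Python 3.11.15, pandas 2.3.3, scipy 1.17.1 and matplotlib 3.10.9, and the fits were tested on simulated data. Alternatives were DESeq2 1.42.0, limma-voom (limma 3.58.1), RLE and upper-quartile factors, somatic and germ cell marker factors, protein-coding genes only, no filter, a minimum of 10 counts in every library, the replicate as a block, and leaving out single libraries. Libraries of one group differed by more than sampling noise (chi-square per degree of freedom of at least 10.03). The study calls the libraries of a group biological replicates, but the labels name no animals, and where libraries shared one, p-values measure only the spread between these libraries. The genes, lists and tests were chosen with earlier results of these data known. Values in every library are given for the 20 members with the smallest adjusted p and for *Rad50* and *Atrip*, chosen after their values were seen, and from other lists up to 2 genes per direction are named. What this rule would name further is not reported here.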

Additional observations from a re-analysis of the deposited data

How the results depend on the processing

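With limma-voom, RLE or upper-quartile factors 30 members were lower, with DESeq2 or no filter on low counts 29 (without *Fancc*), and with at least 10 counts in every library or protein-coding genes only 31 (with *Fancf*). With 1 library left out, 27 to 30 members were lower and 0 higher, and the median ran from -0.65 to -0.50. In all, 25 of the 30 lower members stayed lower under every alternative but scaling to germ cell markers. With 1 library left out, *Hus1* ran from -0.16 to 0.04 and *Fance* from -0.17 to 0.11, with 0.00 without KO-labelled replicate 2. Scaling to somatic markers moved the median of all genes by -0.42 and that of the members to -0.97, and it gave *Rad9a* -0.37, *Msh3* -0.33, *Sfr1* -0.05, *Ercc6* -0.10, *Brip1os* -0.14 and *Dis3l2* -0.20. Scaling to germ cell markers moved the median of all genes by 1.11 and that of the members to 0.54, with 27 members higher and 0 lower, and turned these log2 fold changes: *Brca1* 0.14, *Palb2* 0.65, *Rad51b* 0.04, *Rad51c* 0.05, *Rad51d* 0.87, *Xrcc3* 0.66, *Rad54l* 0.37, *Mre11a* 0.61, *Rad50* 0.96, *Nbn* 0.70, *Exo1* 0.30, *Blm* 0.69, *Atm* 0.41, *Atrip* 0.84, *Chek2* 0.93, *Topbp1* 0.37, *Mdc1* 0.38, *Rnf8* 1.02, *Rad1* 0.66, *Hus1* 1.06, *Rad17* 0.73, *Fancc* 0.72, *Fance* 1.03, *Fancf* 0.74, *Fancg* 0.46, *Fancl* 0.75, *Fancm* 0.93, *Brip1* 0.21, *Msh6* 0.77, *Mlh3* 0.98, *Pms2* 0.43, *Xrcc6* 0.72, *Ogg1* 0.19, *Mbd4* 0.33, *Gtf2h2* 0.31, *Tex14* 0.35, *Npat* 0.65. Both shifts follow from the scaling itself, since ratios between genes of a library stay as they are. Residuals around group means did not correlate between same-numbered libraries (-0.0014, -0.0126 and 0.0139 across genes, which are not independent). No pairing by replicate number was thus seen, which does not exclude one. With the replicate number as a block 30 members were lower, with a median of -0.56, and no member changed its call.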
